A study of Mus musculus with 36 samples.

Results

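Tumour necrosis factor (TNF) is a cytokine made above all by macrophages and T cells, and its signal starts in a small set of proteins at the cell membrane. Described here are the ligand gene *Tnf*, the receptor genes *Tnfrsf1a* and *Tnfrsf1b*, and the genes of the proteins that work at the receptors, *Tradd*, *Traf1*, *Traf2*, *Ripk1*, *Birc3*, *Casp8* and *Cflar*. They were chosen by name as the parts of the machinery, without the genes that TNF switches on, and 10 of 10 were found among the 24781 named genes of the deposited count table. As background, the receptor encoded by *Tnfrsf1a* sits on most cells and carries a death domain, to which the adaptor TRADD and the kinase RIPK1 bind, followed by the adaptor TRAF2 and the ubiquitin ligase cIAP encoded by *Birc3*. This complex turns on NF-κB, or, when it fails, gives way to a complex in which caspase-8 starts cell death unless the caspase-like inhibitor encoded by *Cflar* holds it back. The receptor encoded by *Tnfrsf1b* lacks a death domain, is found mainly on immune cells and binds TRAF2, which TRAF1 joins there.

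MC38, a mouse colon adenocarcinoma line, was inoculated intradermally, and on day 7 tumour-associated macrophages (TAMs, CD45+CD11b+F4/80 high) and CD8+ T cells (CD45+TCRβ+CD8+) were sorted, 100 cells per library. Each of 2 cell types has 6 libraries from WT mice, 6 from *muMt*-/- mice, whose B cells do not mature, and 6 from *muMt*-/- mice implanted with a pellet of the transmitter γ-aminobutyric acid (GABA), 36 libraries in all. The comparisons set mice without B cells against WT mice, and the GABA pellet against none in mice without B cells. For WT and *muMt*-/- mice without GABA the labels give no treatment, while the paper's methods describe a placebo pellet. The *muMt*-/- mice were C57BL/6J and the WT mice C57BL/6J or C57BL/6N, without a statement of which WT mice were used here, and for the study as a whole both sexes and ages of 2 to 5 months are given; pellets were placed under the skin 1 day before the tumour cells, and what all groups share is the MC38 tumour and the day of the sort. The genotype was not checked on the disrupted gene, which was not analysed here.

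In this sequencing each RNA molecule is barcoded before amplification, so that molecules are counted. Per library, from 206394 to 304100 molecules were counted in TAMs of WT mice (median 242756), from 100254 to 253608 in those of *muMt*-/- mice (median 149960) and from 151856 to 262606 with GABA (median 192775). T cells gave fewer, with 22896 to 76898 for WT mice (median 42065.5), 51064 to 77839 for *muMt*-/- mice (median 67121.5) and 65356 to 98015 for those with GABA (median 80283). Levels within a cell type are normalized numbers, that is, molecules after division by a size factor of the library. Where the cell types are compared, levels are given as CPM, the counts scaled to the same total of molecules in each library. In bulk libraries of this kind fewer cells of a type and less RNA per cell cannot be told apart.

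The sorted cell types carried their defining markers. A list of 15 T cell markers summed to a median of 59.0 molecules per 10000 in CD8+ T cell libraries of WT mice, 50.4 in *muMt*-/- mice and 50.1 with GABA, and to no more than 0.594 in any TAM library. A list of 20 macrophage markers summed to a median of 238 per 10000 in TAM libraries of WT mice, 199 in *muMt*-/- mice and 213 with GABA. The lowest TAM value was 127, in replicate 1 with GABA. In that library *Tnf* (21.2 normalized), *Casp8* (21.2) and *Cflar* (86.3) were the highest of their group. In the CD8+ T cell libraries this macrophage list was not at 0. It summed to 1.86 to 28.6 per 10000 in WT mice (median 5.17), with 18 of 20 genes detected, and *Adgre1* and *Mrc1* at 0. In *muMt*-/- mice it summed to 12.7 to 82.5 (median 20.5), and with GABA to 3.91 to 47.8 (median 29.4), with 20 of 20 genes detected in both. *Ctss* was the most abundant of these genes in each group. The medians of this list were thus not the same in the T cell groups that are compared here, and how much of the T cell values is macrophage RNA was not tested. With the macrophage marker level as a covariate, 0 members and 0 genes of the pathway list described further on had an adjusted p under 0.05 in the 3 T cell comparisons, beside 0%, 0.0901% and 0.075% of all genes. With this covariate, unadjusted p-values under 0.05 were those of 1 member and 2 pathway genes for *muMt*-/- against WT mice (5.58% of all genes), 1 and 4 for GABA against none (4.73%), where it was 0 and 2 without the covariate, and 1 and 4 for GABA against WT mice (6.57%). Markers of B cells (8 genes) stood at a median of no more than 0.136 per 10000 in every group, with *Cd79a*, *Pax5* and *Blk* at 0 in all 36 libraries. In TAMs the medians of this list were 0.0470 in WT mice, 0.0796 in *muMt*-/- mice and 0.136 with GABA. Its most abundant gene there, *Cd79b*, had 6, 4 and 9 molecules. The list thus does not set mice without B cells apart from WT mice. In TAMs, neutrophil markers (6 genes) had medians of 0.409 per 10000 in WT mice, 1.13 in *muMt*-/- mice and 0.775 with GABA, and dendritic cell markers (6 genes) 0.0638, 0.183 and 0.193. In T cells, markers of tumour and stroma (10 genes) had medians of 1.72, 5.46 and 2.22 per 10000, with the highest value, 11.3, in *muMt*-/- replicate 3. The collagen gene *Col3a1* gave 76 of 101, 206 of 232 and 99 of 149 of these molecules. The keratin genes *Krt8*, *Krt18* and *Krt19* were at 0 in all T cell libraries. In TAMs the medians of this list were 4.01, 4.39 and 5.68, and the highest values 49.9 in WT replicate 6, 20.3 in *muMt*-/- replicate 3 and 25.6 in replicate 2 with GABA. What these levels add to the values of the members was not tested.

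*Tnf* itself was a low-count gene in both cell types. In TAMs of WT mice its normalized number ran from 3.16 to 19.6 (median 8.26), in those of *muMt*-/- mice from 4.61 to 21.2 (median 9.89), and with GABA from 3.05 to 21.2 (median 7.35). The 3 TAM groups overlapped. The log2 fold change was -0.05 ± 0.38 (SE) between *muMt*-/- and WT mice (edgeR, adjusted p = 0.978), -0.29 ± 0.41 between GABA and no GABA (adjusted p = 0.904) and -0.34 ± 0.38 between GABA and WT (adjusted p = 0.916). These 3 comparisons share control groups, as do those in T cells. In CD8+ T cells of WT mice *Tnf* had 3 molecules in all 6 libraries together, with 4 libraries at 0 and the highest at 2.06 normalized. In *muMt*-/- mice it ran from 0.743 to 10.7 (median 1.07), and with GABA from 0.788 to 5.58 (median 2.61), with molecules in 6 of 6 libraries of both. Both groups overlapped with the 2 WT libraries that had molecules, and replicate 3 held 14 of the 23 molecules of the *muMt*-/- group.

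Per molecule sequenced, *Tnf* in T cells was 4.99 times as frequent in *muMt*-/- as in WT mice (95% counting interval 1.51 to 26.0), and with GABA 4.67 times as frequent as in WT mice (1.43 to 24.1). These intervals cover counting error only, and the fitted fold changes that follow depend on the prior count. The log2 fold change was 2.21 ± 0.86 for *muMt*-/- against WT mice (edgeR, unadjusted p = 0.0143, adjusted p = 0.643), -0.05 ± 0.56 for GABA against none (adjusted p = 0.999) and 2.16 ± 0.85 for GABA against WT mice (unadjusted p = 0.0153, adjusted p = 0.585). With the macrophage marker level as a covariate the differences of *Tnf* from WT mice were 2.59 and 2.48, and with the log2 depth as a covariate 1.51 and 0.99. Without *muMt*-/- replicate 3 the first was 1.2 and the difference of GABA from none was 0.89, and without WT replicate 4 the differences from WT mice were 3.18 and 3.13. The study's T cell list of genes targeted by TNF includes *Tnf* and was chosen on these libraries, so its direction there is not independent evidence.

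**Figure D1:**
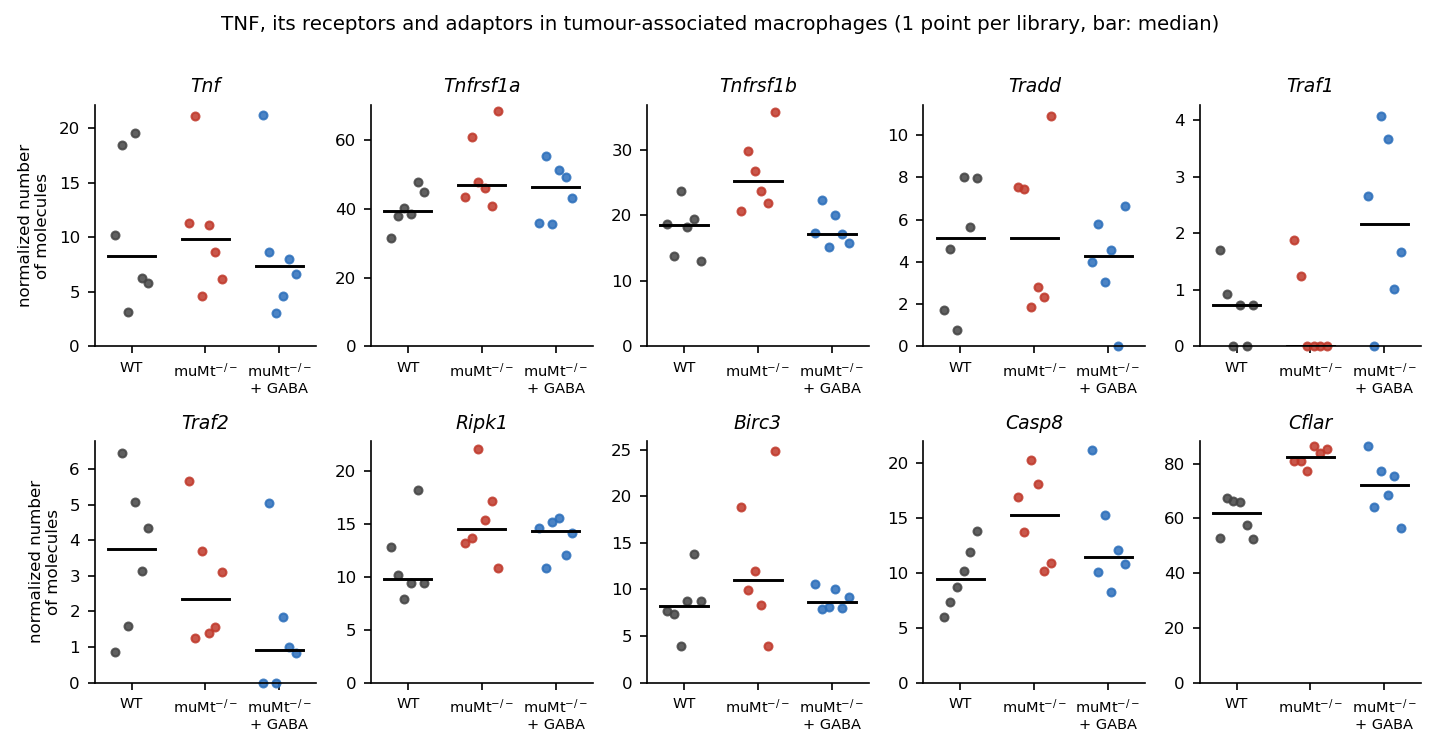
Normalized number of molecules (y axis, linear from 0) of the 10 genes in TAM libraries of WT, *muMt*-/- and GABA-treated *muMt*-/- mice (x axis); each point is 1 library and each bar the median of 6. *Cflar* runs from 52.3 to 67.4 in WT and from 77.4 to 86.5 in *muMt*-/- mice, while *Traf1* stays at or under 4.06 in all 18 libraries.

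*Tnfrsf1a*, the receptor with the death domain, had normalized numbers of 31.6 to 47.7 in TAMs of WT mice (median 39.4), 40.7 to 68.4 in *muMt*-/- mice (median 47.0) and 35.6 to 55.5 with GABA (median 46.3). The groups overlapped, although 6 of 6 *muMt*-/- libraries lay above the WT median. In T cells it ran from 0 to 8.0 in WT mice (median 1.86), from 0.743 to 6.07 in *muMt*-/- mice (median 2.43) and from 1.56 to 15.3 with GABA (median 4.05). In each T cell group the library with the highest *Tnfrsf1a* was also the one with the highest macrophage marker level, replicate 5 in WT mice (28.6 per 10000), replicate 1 in *muMt*-/- mice (82.5) and replicate 1 with GABA (47.8). The levels did not follow each other throughout: with GABA, replicate 3 (46.4 per 10000) and replicate 4 (7.44) both had 4.96 of *Tnfrsf1a*. No comparison of groups within a cell type gave *Tnfrsf1a* an unadjusted p under 0.05, the lowest being 0.0739 (edgeR, GABA against WT in T cells, log2 fold change 1.06).

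*Tnfrsf1b*, the receptor without a death domain, had 13.1 to 23.7 in TAMs of WT mice (median 18.5), 20.7 to 35.7 in *muMt*-/- mice (median 25.2) and 15.2 to 22.4 with GABA (median 17.2). The *muMt*-/- libraries all lay above the median of WT mice, and the libraries with GABA all lay below the *muMt*-/- median, but the ranges overlapped in both comparisons. The log2 fold change was 0.53 ± 0.20 between *muMt*-/- and WT mice (edgeR, unadjusted p = 0.0106, adjusted p = 0.162). It was -0.51 ± 0.20 between GABA and none (unadjusted p = 0.0163, adjusted p = 0.44), and 0.02 ± 0.20 between GABA and WT mice (adjusted p = 0.995). The study's TAM list of genes targeted by TNF, also chosen on these libraries, includes *Tnfrsf1b* and *Cflar*, so that their directions in TAMs are not independent evidence. T cells had *Tnfrsf1b* numbers of 7.33 to 21.6 in WT mice (median 9.83), 4.16 to 12.1 in *muMt*-/- mice (median 7.87) and 5.72 to 12.4 with GABA (median 6.75), with overlapping groups.

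Within a library the receptors can be set against each other as a share of molecules, without correction for transcript length. *Tnfrsf1b* made up a median of 84.7% of the molecules of both receptor genes in CD8+ T cells of WT mice (53.3% to 100%), 75.6% in *muMt*-/- mice (55.6% to 90.0%) and 70.3% with GABA (27.3% to 83.3%). In TAMs its median share was 30.5% in WT mice (22.5% to 37.3%), 34.2% in *muMt*-/- mice (32.4% to 35.8%) and 28.5% with GABA (25.8% to 32.5%). The T cell and TAM libraries did not overlap in this share in WT and in *muMt*-/- mice, and with GABA 1 T cell library, at 27.3%, lay within the TAM range.

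Of the adaptors, *Traf1*, whose protein joins TRAF2 at TNFRSF1B and is itself induced by NF-κB in many cells, was the most uneven between cell types. Its normalized numbers in T cells were 4.13 to 10.3 in WT mice (median 5.15), 0 to 8.09 in *muMt*-/- mice (median 6.01) and 3.81 to 7.43 with GABA (median 4.82). In TAMs there were 5 molecules in all WT libraries together, 2 in those of *muMt*-/- mice and 13 with GABA, found in 4, 2 and 5 of 6 libraries. In TAMs *Traf1* was 5.31 times as frequent per molecule with GABA as without (95% counting interval 1.2 to 48.5), and 0.595 times as frequent in *muMt*-/- as in WT mice (0.0566 to 3.63). The fitted log2 fold changes in TAMs, which rest on the prior count, were 2.09 ± 0.91 for GABA against none (edgeR, unadjusted p = 0.0267, adjusted p = 0.517) and 1.53 ± 0.74 for GABA against WT mice (unadjusted p = 0.0465, adjusted p = 0.711). With the log2 depth as a covariate they were 3.23 and 0.65, and without *muMt*-/- replicate 1 the first was 2.70.

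The remaining genes at the receptor, the adaptors *Tradd* and *Traf2*, the kinase gene *Ripk1* and the ubiquitin ligase gene *Birc3*, were low to moderate. In TAMs the group medians were 4.28 to 5.13 for *Tradd*, 0.919 to 3.75 for *Traf2*, 9.80 to 14.5 for *Ripk1* and 8.20 to 11 for *Birc3*. T cells had group medians of 1.09 to 1.49 for *Tradd*, 1.25 to 1.86 for *Traf2*, 0 to 2.71 for *Ripk1* and 2.10 to 3.19 for *Birc3*. *Ripk1* was at 0 in 4 of 6 T cell libraries of WT mice and had molecules in 6 of 6 of both *muMt*-/- groups (log2 fold change from WT 1.18 and 1.19, edgeR, unadjusted p = 0.0804 and 0.0717). None of these 4 genes had an unadjusted p under 0.05 in the 6 comparisons within cell types. Their groups overlapped in each.

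In the death branch, *Cflar*, whose protein resembles caspase-8 without its activity and holds it in check, had normalized numbers of 52.3 to 67.4 in TAMs of WT mice (median 62.0), 77.4 to 86.5 in *muMt*-/- mice (median 82.4) and 56.5 to 86.3 with GABA (median 72.1). The 6 *muMt*-/- libraries lay above the 6 WT libraries, and those with GABA spanned both. The log2 fold change was 0.42 ± 0.15 between *muMt*-/- and WT mice (edgeR, unadjusted p = 0.00597, adjusted p = 0.12), -0.19 ± 0.15 between GABA and none (adjusted p = 0.765) and 0.23 ± 0.14 between GABA and WT mice (adjusted p = 0.793). With DESeq2's Wald test the first difference was 0.45 (adjusted p = 0.0214), and with the stricter filter of filterByExpr, which left 7 of the 10 members and under which 7.66% of all genes passed, it was 0.45 (adjusted p = 0.0355). It passed in none of the other fits, with 0.38 to 0.46 without single libraries (adjusted p = 0.134 to 0.244) and 0.35 with the log2 depth as a covariate (adjusted p = 0.576). *Casp8*, the initiator caspase of this branch, had 5.97 to 13.8 in TAMs of WT mice (median 9.43), 10.2 to 20.3 in *muMt*-/- mice (median 15.3) and 8.24 to 21.2 with GABA (median 11.4). These ranges overlapped, with 6 of 6 *muMt*-/- libraries above the WT median (log2 fold change 0.57 ± 0.26, edgeR, unadjusted p = 0.0321, adjusted p = 0.28).

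In CD8+ T cells the death branch showed no such order. *Cflar* ran from 16.5 to 28.9 in WT mice (median 20.2), from 11.9 to 23.3 in *muMt*-/- mice (median 15.5) and from 7.81 to 24.2 with GABA (median 18.1). *Casp8* ran from 0 to 6.01 in WT mice (median 3.76), from 1.01 to 4.57 in *muMt*-/- mice (median 3.11) and from 2.74 to 7.63 with GABA (median 3.44). All of these ranges overlapped, and the lowest unadjusted p was 0.202 (edgeR, *Casp8*, GABA against none). Ordered by their means, neighbouring groups overlapped in 20 of 20 pairs in TAMs and 20 of 20 in T cells over the 10 genes. The same count was not made over all genes. It leaves out *Cflar* in TAMs of *muMt*-/- against WT mice, which did not overlap, because the GABA group ranks between them.

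**Figure D2:**
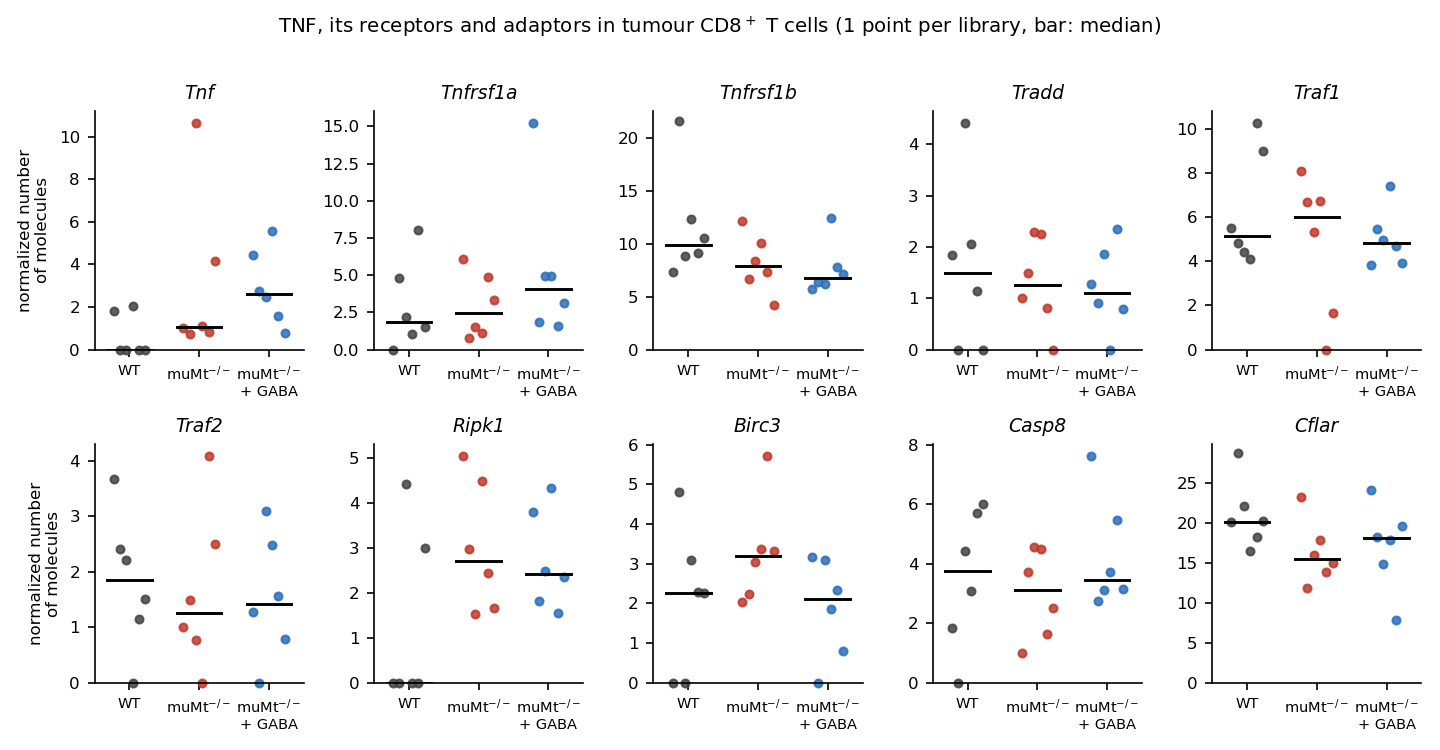
Normalized number of molecules (y axis, linear from 0) of the 10 genes in CD8+ T cell libraries of the same 3 groups (x axis), with 1 point per library and a bar at the median of 6. *Tnf* and *Ripk1* are at 0 in 4 of 6 WT libraries, and the highest *Tnf* value, 10.7, is that of *muMt*-/- replicate 3.

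Over all genes, 0 of 10 members had an adjusted p under 0.05 in TAMs of *muMt*-/- against WT mice (edgeR quasi-likelihood test, 2.05% of the 9469 genes tested), 0 higher (1.02%) and 0 lower (1.02%). Before adjustment 3 had a p under 0.05, *Tnfrsf1b*, *Casp8* and *Cflar* (14.9% of all genes). With DESeq2 1 had an adjusted p under 0.05, *Cflar* (2.98%), and 1, *Cflar*, had groups that did not overlap (2.48%). The median log2 fold change was 0.37 over the members and -0.05 over all genes. For GABA against none in TAMs, 0 of 10 passed (0.0211% of all genes), 2 had an unadjusted p under 0.05 (8.46%), 0 passed with DESeq2 (0.655%) and 0 had groups that did not overlap (0.591%), and the medians were -0.22 and 0.06. For GABA against WT in TAMs these counts were 0 (0.0739%), 1 (7.02%), 0 with DESeq2 (0.137%) and 0 for groups without overlap (0.57%), and the medians were 0.12 and 0.02.

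In CD8+ T cells 0 of 10 members passed between *muMt*-/- and WT mice (edgeR, 0% of the 6663 genes tested), 1, *Tnf*, had an unadjusted p under 0.05 (6.17%), 0 passed with DESeq2 (0%) and 0 had groups that did not overlap (0.435%). For GABA against none the counts were 0 (0%), 0 unadjusted (3.71%), 0 with DESeq2 (0%) and 0 for groups without overlap (0.255%). For GABA against WT they were 0 (0%), 1 unadjusted, again *Tnf* (6.89%), 0 with DESeq2 (0.015%) and 0 for groups without overlap (0.315%). The median log2 fold change of the members was 0.07, 0.01 and 0.11 in these 3 comparisons, beside 0.15, 0.03 and 0.21 over all genes. DESeq2's size factors move the median of all genes by -0.15 in the last of them, and total molecules move it by -0.10 in the first and -0.15 in the last.

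The difference between the cell types in these responses was tested in a fit over all 36 libraries. For *muMt*-/- against WT mice, 0 of 10 members had an adjusted p under 0.05 for TAMs minus T cells (edgeR, 0.0118% of the 8477 genes tested), 3 an unadjusted p under 0.05 (10.1%), and 1, *Cflar*, an adjusted p under 0.05 with DESeq2 (0.448%). The values were -2.38 ± 1.07 for *Tnf* (edgeR, unadjusted p = 0.0309, adjusted p = 0.439), 0.90 ± 0.36 for *Tnfrsf1b* (0.0159 and 0.392) and 0.62 ± 0.28 for *Cflar* (0.0308 and 0.439, and 0.84 with an adjusted p of 0.0419 in DESeq2, but adjusted p = 0.389 to 0.56 with edgeR without single libraries). Without T cell replicate 4 of WT mice the difference of *Tnf* was -3.47, and without T cell replicate 3 of *muMt*-/- mice -1.36. The median over all genes was -0.30, and DESeq2's size factors move it by 0.19. For GABA against none, 0 of 10 passed (0%), 1 had an unadjusted p under 0.05 (4.53%) and 0 passed with DESeq2 (0%). That gene was *Tnfrsf1a*, with -1.15 ± 0.52 (edgeR, unadjusted p = 0.0321, adjusted p = 0.994), and the difference of *Tnf* was -0.25 ± 0.74 (adjusted p = 1). Without T cell replicate 1 of the GABA group, which holds 24 of its 48 *Tnfrsf1a* molecules, that of *Tnfrsf1a* was -0.47, and without T cell replicate 3 of *muMt*-/- mice that of *Tnf* was -1.27.

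**Figure D3:**
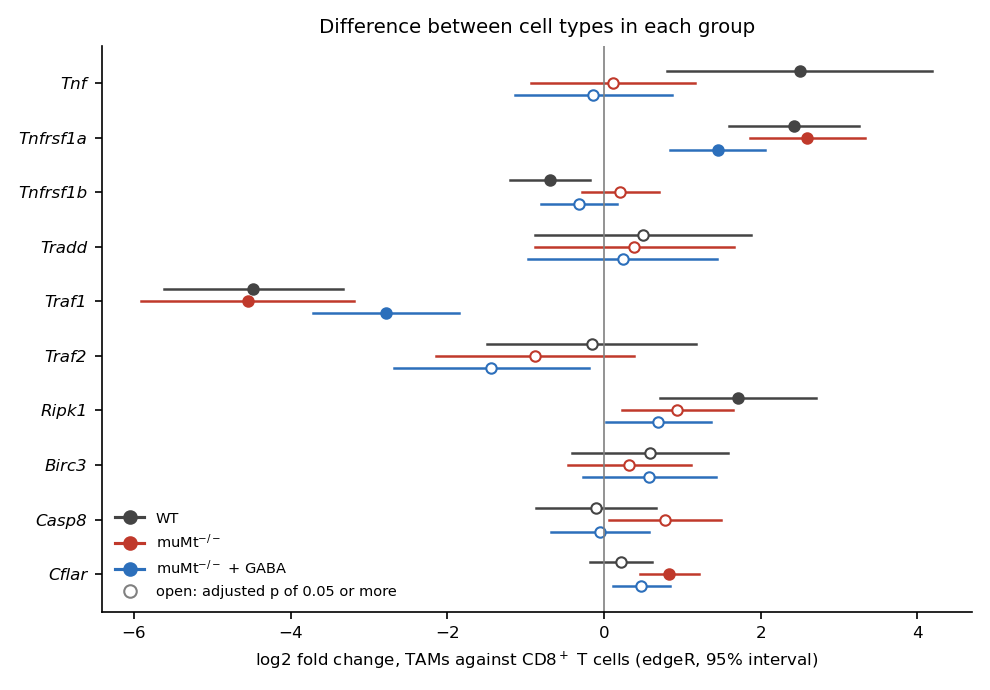
Log2 fold change of TAMs against CD8+ T cells (x axis, edgeR) for the 10 genes (y axis) in WT, *muMt*-/- and GABA-treated *muMt*-/- mice; lines are 95% intervals and filled points have an adjusted p under 0.05. *Tnfrsf1a* is to the right of 0 in the 3 groups (1.45 to 2.60) and *Traf1* to the left (-2.78 to -4.55).

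Between the cell types more members passed than between groups of mice, as was the case over all genes. In WT mice 5 of 10 had an adjusted p under 0.05 (edgeR, 22.7% of all genes), 3 higher in TAMs (16.8% of all genes) and 2 lower (5.99%). In *muMt*-/- mice it was 3 (21.4%), 2 higher (13.6%) and 1 lower (7.71%), and with GABA 2 (22%), 1 higher (14.1%) and 1 lower (7.93%). Groups that did not overlap in CPM were those of 2 members in WT mice, *Tnfrsf1a* and *Traf1* (14.3% of all genes), of 2 in *muMt*-/- mice, *Tnfrsf1a* and *Cflar* (10.2%), and of 1 with GABA, *Traf1* (9.66%). The median log2 fold change over all genes was 0.36, 0.10 and 0.12 in the 3 groups, beside 0.36, 0.35 and 0.10 over the members. DESeq2's size factors move the median of all genes by -0.16 in WT mice, and total molecules move it by -0.32, -0.23 and -0.14. With DESeq2's size factors the members called with GABA were 2 higher and 1 lower.

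*Tnfrsf1a* stood at 169 to 250 CPM in TAMs of WT mice (median 214) and at 0 to 135 in their T cells (median 32.8). The libraries of the cell types did not overlap, and the log2 fold change was 2.42 ± 0.42 (edgeR, adjusted p = 8.62e-06), and 3.17 without T cell replicate 5. In *muMt*-/- mice it was 205 to 353 (median 239) against 13.0 to 94.5 (median 43.6), again without overlap, a log2 fold change of 2.60 ± 0.37 (adjusted p = 2.07e-07). With GABA it was 178 to 293 (median 250) against 29.0 to 245 (median 70.3). Here T cell replicate 1, at 245, lay within the TAM range, and the log2 fold change was 1.45 ± 0.31 (adjusted p = 0.000269). Without that library, which has the highest macrophage marker level (47.8 per 10000) and the lowest T cell marker level (26.3) of its group, it was 2.13.

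*Traf1* showed the opposite order. In WT mice it stood at 0 to 9.11 CPM in TAMs (median 3.97) and at 74.6 to 174 in T cells (median 90.0), a log2 fold change of -4.47 ± 0.58 (edgeR, adjusted p = 1.31e-08). With GABA it stood at 0 to 21.5 (median 11) and 61.2 to 133 (median 85.5), a log2 fold change of -2.78 ± 0.48 (adjusted p = 7e-06). No TAM library reached a T cell library in either group. In *muMt*-/- mice, where TAMs had 2 molecules and 1 T cell library was at 0, *Traf1* was 39.1 times as frequent in T cells (95% counting interval 9.99 to 337), and the fitted log2 fold change of -4.55 ± 0.69 (adjusted p = 6.78e-07) depends on the prior count.

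The other calls between cell types were those of *Tnf*, *Ripk1* and *Tnfrsf1b* in WT mice and of *Cflar* in *muMt*-/- mice. *Tnf* stood at 17.0 to 108 CPM in TAMs of WT mice (median 43.8) and at 0 to 37.3 in their T cells, a ratio of 4.83 (95% counting interval 1.60 to 23.9). Its fitted log2 fold change was 2.5 ± 0.87 (edgeR, adjusted p = 0.0281), and 3.59 without T cell replicate 4. This call was lost without T cell replicate 2, 3, 5 or 6 or TAM replicate 2 or 4 (adjusted p = 0.0583 to 0.0961), with scaling to total molecules (0.0754) and with a robust fit (0.0664). In *muMt*-/- mice and with GABA the *Tnf* differences were 0.12 ± 0.53 (adjusted p = 0.916) and -0.14 ± 0.51 (adjusted p = 0.9).

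*Ripk1* stood at 42.6 to 95.4 CPM in TAMs of WT mice (median 52.6) and at 0 to 79.1 in T cells, with a log2 fold change of 1.71 ± 0.51 (edgeR, adjusted p = 0.0089). It was 2.76 without T cell replicate 6, and with DESeq2's test the adjusted p was 0.0559. In *muMt*-/- mice the *Ripk1* difference was 0.94 ± 0.36 (adjusted p = 0.0551), which passed without T cell replicate 1 (0.0422), without TAM replicate 6 (0.0414) and with DESeq2's size factors (0.0457), but not in the other fits (up to 0.224 and a value of 0.68, without TAM replicate 3). With GABA it was 0.69 ± 0.34 (unadjusted p = 0.0481, adjusted p = 0.152). *Tnfrsf1b* was lower in TAMs of WT mice, at 71.2 to 128 CPM (median 100.0) against 123 to 393 in T cells (median 170), a log2 fold change of -0.69 ± 0.26 (adjusted p = 0.0478). This call was lost without T cell replicate 2, 4 or 6 or TAM replicate 1, 2 or 6 (adjusted p = 0.0549 to 0.132), with no filter (0.243), with a robust fit (0.0572) and with the 12 libraries of WT mice alone (0.051). Without T cell replicate 2 or 6 or TAM replicate 2 the number of members called in WT mice was 3.

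*Cflar* stood at 402 to 442 CPM in TAMs of *muMt*-/- mice (median 424) and at 208 to 362 in their T cells (median 273). No library of the cell types overlapped, and the log2 fold change was 0.84 ± 0.19 (edgeR, adjusted p = 0.000798). With GABA the *Cflar* difference was 0.48 ± 0.19 (unadjusted p = 0.0135, adjusted p = 0.0586), which passed without T cell replicate 1 (0.0175), without TAM replicate 6 (0.0431), with DESeq2's size factors (0.0333) and with DESeq2's test (0.0135). It did not pass in the other fits, with up to 0.197 in the other alternatives and, without T cell replicate 5, a value of 0.27 (adjusted p = 0.347). *Casp8* had a difference of 0.78 ± 0.37 in *muMt*-/- mice (unadjusted p = 0.0382, adjusted p = 0.13). *Traf2* had -1.44 ± 0.63 with GABA (unadjusted p = 0.0276, adjusted p = 0.101), and without TAM replicate 2 it was -2.42 (adjusted p = 0.0103), the only fit in which it passed, with adjusted p-values of up to 0.295 without other libraries. TAM replicate 2 holds 7 of the 11 *Traf2* molecules of its group.

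Around these 10 genes, a list of 57 other genes of the pathway covers TNF release and mRNA decay, ubiquitin ligases and deubiquitinases, kinase complexes, cell death and the NF-κB subunits and inhibitors. Of them 55 could be tested in TAMs, 45 in CD8+ T cells and 55 in the fit over both. Between groups of mice, 1 of 55 had an adjusted p under 0.05 in TAMs of *muMt*-/- against WT mice, and it was higher (2.05% of all genes in either direction, 1.02% higher). This gene was *Nfkbie*, which encodes an inhibitor that holds NF-κB in the cytoplasm. It had 4.36 to 11.8 normalized molecules in TAMs of WT mice (median 6.83), 9.32 to 19.5 in *muMt*-/- mice (median 14.5) and 5.82 to 10.1 with GABA (median 8.86), so that the first groups overlapped. Its log2 fold change between *muMt*-/- and WT mice was 0.96 ± 0.26 (edgeR, adjusted p = 0.038). The call was lost without WT replicate 1, 2, 4, 5 or 6 or *muMt*-/- replicate 1, 3, 4 or 5 (adjusted p = 0.0591 to 0.132), with no filter (0.0553) and with the log2 depth as a covariate (0.257), while the log2 fold change was 0.85 to 0.97 in these fits.

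In the other 5 comparisons within cell types and in both comparisons of responses, 0 of these pathway genes had an adjusted p under 0.05 with edgeR. At an unadjusted p under 0.05 it was 9 of 55 in TAMs of *muMt*-/- against WT mice (7 higher and 2 lower, beside 6.72% and 8.15% of all genes), 3 for GABA against none (0 and 3, beside 5.15% and 3.31%) and 4 for GABA against WT (1 and 3, beside 3.74% and 3.28%). In T cells it was 2 of 45 for *muMt*-/- against WT mice (2 and 0, beside 5.37% and 0.795%), 2 for GABA against none (1 and 1, beside 2.01% and 1.7%) and 5 for GABA against WT (3 and 2, beside 5.99% and 0.9%). For the differences between responses it was 4 of 55 (1 and 3, beside 1.75% and 8.32%) for the missing B cells and 1 (0 and 1, beside 2.58% and 1.95%) for GABA. DESeq2 called 2 pathway genes in TAMs of *muMt*-/- against WT mice (2.98% of all genes), 1 for GABA against none (0.655%) and 0 in the others. Without TAM replicate 1 of the GABA group, 1 pathway gene passed for GABA against none. The median log2 fold change of the list was 0.10, -0.09 and -0.01 in the TAM comparisons and -0.07, -0.03 and -0.03 in the T cell comparisons, beside the medians of all genes given with the members.

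Between the cell types 11 of 55 pathway genes passed in WT mice (4 higher in TAMs and 7 lower, beside 16.8% and 5.99% of all genes), 14 in *muMt*-/- mice (7 and 7, beside 13.6% and 7.71%) and 16 with GABA (6 and 10, beside 14.1% and 7.93%). With scaling to total molecules the splits were 3 and 10 in WT mice and 4 and 9 in *muMt*-/- mice. Among the genes of other ligands and of TNF release, *Lta* and *Ltb*, the lymphotoxin genes, were lower in TAMs in the 3 groups. *Ltb* had 3, 1 and 1 molecules in all TAM libraries of WT, *muMt*-/- and GABA-treated mice, and was 81.9 (26.3 to 412), 130 (22.3 to 5216) and 141 times (24.3 to 5667) as frequent in T cells (95% counting intervals; edgeR, adjusted p = 3.32e-12, 8.68e-11 and 9.38e-12). *Lta* had 1, 0 and 1 molecules there, and was 89.4 (13.9 to 3748) times as frequent in T cells of WT mice and 111 times (19.0 to 4494) with GABA. In *muMt*-/- mice it was at least 26.1-fold higher in T cells, against a floor of 3 molecules over the group (edgeR, adjusted p = 4.19e-07, 7.18e-09 and 2.47e-10 in the 3 groups). Leaving out 1 TAM library moved the fitted log2 fold change of *Ltb* from -5.53 to -6.33 in WT mice (replicate 3). It went from -5.88 to -6.98 in *muMt*-/- mice (replicate 2) and from -5.96 to -6.95 with GABA (replicate 1). That of *Lta* went from -4.94 to -5.75 in WT mice (replicate 5) and from -5.59 to -6.51 with GABA (replicate 6).

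*Adam17*, the gene of the protease that sheds TNF from the membrane, was higher in TAMs, by a log2 fold change of 2.94 in WT mice, 1.81 in *muMt*-/- mice and 1.42 with GABA (edgeR, adjusted p = 1.26e-06, 9.89e-06 and 0.000317). With GABA it was 0.95 without TAM replicate 1. *Rhbdf2*, needed for the transport of that protease, was higher in WT mice (2.49, adjusted p = 0.000521), and the value was 3.24 without T cell replicate 3 and 3.09 without T cell replicate 5. *Zfp36*, whose protein speeds the decay of *Tnf* mRNA, was higher in TAMs by 2.08, 1.18 and 1.0 (adjusted p = 3.73e-08, 0.000158 and 0.00117). Its relative *Zfp36l1* was higher in *muMt*-/- mice (0.74, adjusted p = 0.00166) and with GABA (0.80, adjusted p = 0.000871). *Frmd8*, which keeps the protease complex stable, was lower in *muMt*-/- mice (-1.13, adjusted p = 0.0161), a call lost without T cell replicate 6 (0.0922). *Adam17* and *Xiap* are also on that TAM list of the study.

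Among the ubiquitin genes, *Tnfaip3*, whose protein A20 edits ubiquitin and damps the signal, was lower in TAMs in the 3 groups. It stood at 54.7 to 135 CPM in TAMs of WT mice (median 96.1) and at 480 to 895 in their T cells (median 583). The log2 fold change was -2.44 ± 0.27 in WT mice (edgeR, adjusted p = 9.33e-11), -2.23 ± 0.27 in *muMt*-/- mice (3.61e-09) and -2.12 ± 0.27 with GABA (1.2e-08). *Xiap*, a caspase inhibitor gene, was higher in *muMt*-/- mice (1.12, adjusted p = 0.00255). With GABA the *Xiap* difference was 0.72 (adjusted p = 0.0473), a call lost without T cell replicate 1, 3, 4 or 5 or TAM replicate 1, 2, 3, 4 or 5 (0.0552 to 0.143) and with total molecules, filterByExpr, no filter or the 12 libraries of that group alone (0.0694 to 0.135). *Traf5* was lower in TAMs of *muMt*-/- mice (-2.14, adjusted p = 0.0327), lost without T cell replicate 2 or 6 or TAM replicate 1, 2, 3 or 4 (0.0525 to 0.174), and -2.91 without TAM replicate 5. *Birc2*, the partner of *Birc3*, was lower with GABA (-1.54, adjusted p = 0.0202), lost without T cell replicate 4 or 6 or TAM replicate 6 (0.0507 to 0.0902).

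Of the kinase complexes, *Tab2*, an adaptor of the kinase TAK1, was higher in TAMs of *muMt*-/- mice (0.90, edgeR, adjusted p = 0.0107, and 0.0582 with total molecules). *Map3k8* was lower with GABA (-1.2, adjusted p = 0.0404), a call lost without T cell replicate 2, 3 or 6 or TAM replicate 3 or 6 (0.0515 to 0.105) and with no filter (0.0622). *Mapkapk2*, a kinase that stabilizes *Tnf* mRNA, was higher in TAMs of WT mice (0.73, adjusted p = 0.0269). That call was lost without T cell replicate 1 or 3 or TAM replicate 2, 3, 4 or 5 (0.0587 to 0.104), with DESeq2's size factors, total molecules, DESeq2's test or filterByExpr (0.106 to 0.32), and with total molecules the value was 0.40 and with filterByExpr 0.45.

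Among the cell death genes, the necroptosis genes *Ripk3* and *Mlkl* were higher in TAMs with GABA. For *Ripk3* the log2 fold change was 1.83 (edgeR, adjusted p = 0.0206), lost without T cell replicate 3 or 4 or TAM replicate 5 (0.0605 to 0.0718). *Mlkl* had 3 molecules in all T cell libraries of that group and was 4.58 times as frequent in TAMs (95% counting interval 1.44 to 23.3). Its fitted log2 fold change, which depends on the prior count, was 2.16 (edgeR, adjusted p = 0.0142), and 3.22 without T cell replicate 6. Of the NF-κB genes, *Nfkb2*, an NF-κB subunit gene, was lower in TAMs of WT mice (-1.29, adjusted p = 0.00334) and with GABA (-1.24, adjusted p = 0.00194). The inhibitor gene *Nfkbia* was lower in WT mice (-0.82, adjusted p = 0.0127), in *muMt*-/- mice (-0.96, adjusted p = 0.00184) and with GABA (-1.23, adjusted p = 9.13e-05).

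The inhibitor gene *Nfkbib* was lower in TAMs of WT mice (-1.14, edgeR, adjusted p = 0.0305) and with GABA (-1.47, adjusted p = 0.00109). In WT mice its call was lost without T cell replicate 4 (-1.02, adjusted p = 0.104), without T cell replicate 6 (-0.66, adjusted p = 0.354) and with no filter (0.0655). *Nfkb1*, the other subunit gene processed from a precursor, was lower in WT mice (-0.83, adjusted p = 0.0298), lost without T cell replicate 4 (0.146), without T cell replicate 6 (0.116) and with no filter (0.0669). With GABA it was also lower (-0.83, adjusted p = 0.0233), lost without T cell replicate 4 (0.0738) or 5 (0.0913). *Nfkbie* was higher in TAMs of *muMt*-/- mice (1.17, adjusted p = 0.0303). This was lost without T cell replicate 2, 3, 5 or 6 or TAM replicate 3, 4 or 5 (0.0639 to 0.103) and with total molecules (0.0936).

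For the 3 members with the highest mean number in each cell type, genes with the most similar levels over its 18 libraries were listed by Pearson's r of log2(normalized number + 1), as a description over libraries that share their groups. In TAMs, among 5307 other genes with a mean of at least 5, *Cflar* was closest to *Mir6240* (r = 0.89), *Cep350* (0.88) and *Gm17757* (0.88). *Tnfrsf1a* was closest to *Plac8* (r = 0.86), *Slc8a1* (0.85) and *Coro1b* (0.83), and *Tnfrsf1b* to *Fbxl5* (0.86) and *Anpep* (0.81). After the group means were taken out, r for these 8 genes was 0.68 to 0.86. Over T cell libraries, among 1882 other genes, *Cflar* was closest to *Fyb* (0.73), *Zmiz1* (0.68) and *Sh3bgrl* (0.68), *Tnfrsf1b* to *Itga4* (0.77), *Ide* (0.71) and *Wdr1* (0.70), and *Traf1* to *Rbm25* (0.63), *Ivns1abp* (0.61) and *Zfp292* (0.60). Between these members and the others with a mean of at least 5, r ran in TAMs from -0.10 (*Tnfrsf1a* and *Tnf*) to 0.66 (*Tnfrsf1a* and *Tnfrsf1b*), and in T cells from 0.23 (*Cflar* and *Traf1*) to 0.43 (*Cflar* and *Tnfrsf1b*).

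In the mouse genome (GRCm38.p6, RefSeq) *Cflar* (chr1:58711311-58758884) and *Casp8* (chr1:58795233-58847503) are neighbours, 36348 bases apart. *Traf1* and *Traf2* share chromosome 2 but lie 9394809 bases apart, and the other 6 genes are each on a chromosome of their own. In the GENCODE annotation the exons of 9 of the 10 genes overlap no other gene's, while *Ripk1* overlaps *Serpinb6a* on the opposite strand and a pseudogene. Promoters (250 bases before to 50 after a listed start) were at hand for 9 of the 10 genes, with 2 for *Ripk1* and none for *Tradd*. The listed start is not always the start of the gene given above. For *Casp8* the window was chr1:58802252-58802551, inside the gene. The κB consensus, searched on both strands by its 10-letter pattern, was in 0 of these 9 genes' promoters and in 1480 of all 32851 promoters of this length (4.51%), so no sequence is shown. No match says only that these letters are not in this window.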

How the data were processed

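The authors mapped the reads with STAR to mm10 and deposited, for each gene and library, the count of distinct molecules, without normalization. No spike-in was found in the table (0 genes), and 9188 of 24781 genes have no molecule in any library. For normalized numbers, DESeq2's size factors (medians of ratios) were fitted on the 18 libraries of each cell type and divided out; CPM use the library totals. Genes with a mean above 1 were tested with edgeR 4.0.16 (quasi-likelihood F-test, TMM, 1 coefficient per group and no covariate), in 1 fit per cell type and 1 over all 36 libraries for the comparisons between cell types and between their responses. P-values were adjusted by Benjamini-Hochberg over all genes tested, with a threshold of 0.05. An SE is the fold change divided by the root of F, and counting intervals are exact (95%, binomial). Groups follow the sample labels and 0 libraries were left out. The other tools were R 4.3.3, DESeq2 1.42.0, matplotlib 3.10.9, pandas 2.3.3, numpy 2.4.6 and Python 3.11.15.

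The members and lists were chosen with earlier results of these data known. Named with a fold change were *Tnf*, members with an unadjusted p under 0.05, pathway genes with an adjusted p under 0.05 within a cell type (up to 8) and, between cell types, up to 3 of the largest called differences per direction and role. Fold changes of *Tnfrsf1a* and *Ripk1*, of *Nfkbia* in WT mice and of *Nfkb1* with GABA go beyond that rule and were added after their values were seen. Alternatives were DESeq2's size factors, total molecules, DESeq2's Wald test, filterByExpr, no filter, a robust fit, replicate numbers as blocks, the log2 depth or, in T cells, the macrophage marker level as a covariate, only the libraries compared, and leaving out each library in turn. The procedure was tested on simulated data. Changes were planted there only in genes with higher counts, and all were larger than those of *Tnfrsf1b*, *Casp8* and *Cflar* in TAMs. The simulation therefore does not cover low-count genes such as *Tnf* in T cells, or changes of that size.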

Additional observations from a re-analysis of the deposited data

Results flagged for a closer look

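A library was singled out where its gap to the nearest of the other 5 relative to the range of its group passed the 5% point of Dixon's test for 6 values, which chance alone gives in about 1 in 20 groups. Of 78 groups of values tested, 9 had such a library. In CD8+ T cells of *muMt*-/- mice, replicate 3 had 10.7 normalized molecules of *Tnf*, where the others had 0.743 to 4.16, and replicate 5 had 5.72 of *Birc3*, where the others had 2.02 to 3.36. In T cells of GABA-treated mice, replicate 1 had 15.3 of *Tnfrsf1a* (others 1.56 to 4.96) and replicate 4 had 12.4 of *Tnfrsf1b* (others 5.72 to 7.81). In T cells of WT mice, replicate 2 had 21.6 of *Tnfrsf1b* (others 7.33 to 12.4). In TAMs of GABA-treated mice, replicate 1 had 21.2 of *Tnf* (others 3.05 to 8.65) and replicate 2 had 5.05 of *Traf2* (others 0 to 1.83). The macrophage marker level of the T cell libraries was 28.6 per 10000 molecules in WT replicate 5 (others 1.86 to 8.71) and 82.5 in *muMt*-/- replicate 1 (others 12.7 to 37.0).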

How the results depend on the processing

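Counts of members and pathway genes past the threshold stayed within 1.5 times their value in 177 of 190 results of the alternatives other than leaving out a library, and in 299 of 312 that left out 1. Many of these counts were 0 in the main fit, and 0 against 0 was scored as the same. The count of pathway genes in TAMs of *muMt*-/- against WT mice stayed the same in 2 of 9 such alternatives. Without single libraries it did so in 3 of 12. For single genes 537 of 569 and 843 of 932 kept both direction and side of the threshold. A gene without an adjusted p in DESeq2 was scored as keeping its side. The cause of the differences that follow was not tested.

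In TAMs of *muMt*-/- against WT mice, 1 member passed instead of 0 with DESeq2's Wald test (2.98% of all genes) and with filterByExpr (1 of 7 tested, beside 7.66% of all genes instead of 2.05%). There 2 pathway genes instead of 1 passed with DESeq2's size factors, with DESeq2's test and with filterByExpr, 3 with the libraries of the 2 groups alone, and 0 with no filter, with the replicate block and with the log2 depth as a covariate, and 0 to 1 without single libraries. For GABA against none in TAMs, 1 pathway gene passed with DESeq2's test and 0 to 1 without single libraries. Between cell types in WT mice, 3 members instead of 5 passed with filterByExpr, which left 4 of the 10 to be tested and neither *Tnf* nor *Ripk1* among them (44.6% of all genes passed), and 3 with the robust fit, and 3 to 5 without single libraries. In the difference between responses to the missing B cells, 1 member passed with DESeq2's test.

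The sign changed for *Tnf*, which passed in none of these comparisons. In TAMs of *muMt*-/- against WT mice it was 0.00835 with the replicate block and -0.39 to 0.25 without single libraries. For GABA against none it was -0.64 to 0.0432 in TAMs and -0.37 to 0.89 in T cells without single libraries, and -1.27 to 0.0806 for the difference between them. For TAMs against T cells it was -0.11 with total molecules and -0.21 to 1.13 without single libraries in *muMt*-/- mice, and -0.59 to 0.16 with GABA.

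The replicate numbers were checked as pairs. Libraries of the same number in 2 groups correlated at -0.394 to 0.450 after the group means were taken out, with over 0.1 in no more than 3 of 6 pairs, so the numbers are treated as shared numbers only. Only TAM and T cell libraries of the same group could share a mouse. Their mean correlation was 0.035 in WT mice, 0.051 in *muMt*-/- mice and 0.119 with GABA. For libraries of different numbers it was -0.007, -0.009 and -0.021. Whether these libraries share mice is not settled by this, and the main fit leaves them unpaired. With the number as a block, *Nfkbie* in TAMs had an adjusted p of 0.0609, *Tnfrsf1b* between cell types in WT mice 0.0589 and *Xiap* with GABA 0.0513. Depth limits the T cell results, where several members have 0 to 3 molecules in a library. The macrophage marker level is not the same in the T cell groups, and what it adds to the T cell values was not tested. A p that misses the threshold does not show that levels are equal.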
